A study of Mus musculus with 24 samples.

Results

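Dlx5, Dlx6 and Dlx6os1 are neighbouring genes of mouse chromosome 6 and were followed together as 1 locus, 3 of the 26611 genes with an identifier in the deposited count table. They were chosen by symbol (Entrez genes 13395, 13396 and 320038), and all 3 passed the filter on low counts. RNA-seq had been done on polyadenylated RNA from the 1st and 2nd pharyngeal arches, paired outgrowths of the embryonic head and neck from which the jaws and parts of the ear develop. All 24 embryos were female, at E10.5, on a C57BL/6 background, and each of 6 genotypes had 4 biological replicates. The genotypes were Kat6a homozygous knockout, Dlx5 homozygous knockout, double heterozygous knockout (1 mutant allele of each gene), Kat6a heterozygous knockout, Dlx5 heterozygous knockout and wild type. The labels name the knockout alleles by gene only. Neither what these alleles change in the gene nor the way they were made was used here. Embryos came from 2 mouse facilities, labelled as batches. All Kat6a homozygous and wild type libraries were in batch 2 and all Dlx5 homozygous libraries were in batch 1. Of the double heterozygous libraries replicate 1 was in batch 2 and the other 3 in batch 1, and of each single heterozygous group replicate 4 was in batch 1 and the other 3 in batch 2.

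Dlx genes encode homeodomain transcription factors, and in the pharyngeal arches they are expressed in nested domains along the dorsoventral axis. Dlx5 and Dlx6 mark the ventral part of each arch, where endothelin and BMP signals switch them on and where they are needed for lower jaw identity. Dlx6os1, also called Evf2, is a long noncoding RNA of the same locus, studied mainly in the ventral forebrain of the mouse, where it has been reported to act on Dlx5 and Dlx6 transcription. The product of Kat6a (alias Moz) is a histone acetyltransferase that works in a complex with Brpf1 and other subunits and is known for keeping Hox and other patterning genes active.

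In the RefSeq annotation of GRCm38, Dlx6os1 spans chr6:6820543-6871627 on the minus strand. Dlx6 lies on the plus strand at chr6:6863334-6867970, wholly inside the Dlx6os1 span. Dlx5 lies on the minus strand at chr6:6877801-6882068, 9830 bases beyond the 3′ end of Dlx6, so that both coding genes are transcribed towards each other. In the GENCODE M21 annotation of the same build, exons of Dlx6os1 cover 5215 bases and those of Dlx6 cover 2375 bases, and they share 0 bases. A second antisense RNA, Dlx6os2 (chr6:6863797-6865150), shares 104 exon bases with Dlx6. Dlx6os2 had 0 to 13 counts per library and was not tested. Whether reads were counted by strand, and on which annotation, is unknown here. Reads of Dlx6 and of antisense RNA within it therefore cannot be told apart with certainty.

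Promoter windows, from 250 bases before to 50 after the start site, were found in the RefSeq table (GRCm38.p6) for Dlx6os1 alone among the 3 genes, for 2 start sites. They are shown because Dlx6os1 had the largest changes of the locus. Both are on the minus strand, written 5′ to 3′, and capitals mark TAATTA, a core sequence bound by many homeodomain proteins, Dlx factors among them. The letters read the same on both strands.
Dlx6os1, start site 6869533, chr6:6869484-6869783: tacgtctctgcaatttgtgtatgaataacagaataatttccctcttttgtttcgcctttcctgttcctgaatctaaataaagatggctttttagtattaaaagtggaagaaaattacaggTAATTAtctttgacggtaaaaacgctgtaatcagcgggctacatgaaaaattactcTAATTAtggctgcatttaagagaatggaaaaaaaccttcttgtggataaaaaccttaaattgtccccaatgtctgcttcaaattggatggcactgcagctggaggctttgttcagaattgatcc
Dlx6os1, start site 6861683, chr6:6861634-6861933: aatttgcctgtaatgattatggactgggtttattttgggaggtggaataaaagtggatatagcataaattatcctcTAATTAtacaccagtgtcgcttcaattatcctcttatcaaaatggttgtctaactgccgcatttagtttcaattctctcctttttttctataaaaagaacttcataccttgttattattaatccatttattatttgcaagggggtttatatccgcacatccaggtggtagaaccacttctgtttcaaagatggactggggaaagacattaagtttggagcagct
The window of the start site at 6869533 held TAATTA 2 times, beginning 130 and 74 bases before the start. The window of the start site at 6861683 held it 1 time, beginning 174 bases before the start. Of the 32851 windows of this length in the table, 5.29% held the letters at least once and 0.49% at least 2 times. Both Dlx6os1 windows were rich in A and T (64.3% and 64.7%, against a median of 47.3% over all windows), and of the 3502 windows with at least 60% A and T, 18.2% held the letters. A match of letters is a description and shows no binding.

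Depth ran from 10.4 to 28.2 M counts on genes per library. Arch mesenchyme markers were all measured (9 of 9 passed the filter), and their summed level lay between 1604 and 2217 CPM (a gene's counts over the TMM-scaled size of its library) in the 24 libraries. Of the neuron and glia markers 13 of 14 passed the filter. Their sum stood apart in replicate 2 of the Kat6a homozygous, Kat6a heterozygous, Dlx5 heterozygous and wild type groups. It was 265, 459, 334 and 399 CPM there, each far above the rest of its own group. For genes of the locus, some log2 differences are also given without those 4 libraries, including each change of call or sign. Ratios and other named genes are given with all libraries only. Double heterozygous libraries were high as a group (142 to 285 CPM) and were not left out. Markers of forebrain GABA neurons, the cells in which Dlx6os1 is best known, were at or near 0. Gad1 reached at most 0.437 CPM and was at 0 in 8 of 24 libraries, and Gad1, Gad2, Slc32a1, Sp9 and Nkx2-1 failed the filter.

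The genes named in the knockout labels did not show those labels in gene-level counts. Kat6a had 228 ± 15 CPM (SD, n = 4) in libraries labelled Kat6a homozygous and 202 ± 41 CPM in wild type (n = 4). Dlx5 was at 67.4, 58.7, 57.7 and 66.5 CPM in the libraries labelled Dlx5 homozygous, against 64.7, 79.0, 64.6 and 69.1 CPM in wild type. These ranges overlapped. The batch-adjusted log2 difference in Dlx5 was 0.03 (SE 0.11, edgeR adjusted p = 0.947). A gene-level count sums all exons and can hold reads from a transcript of a mutant allele, so it does not test the genotype. Statements on both homozygous groups therefore follow their labels.

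Levels per length were compared first in wild type. With counts divided by the gene lengths in the deposited table, Dlx5 had 49.3 ± 4.8, Dlx6 26.9 ± 3.6 and Dlx6os1 11.5 ± 1.5 CPM per kb (SD, n = 4). Dlx5 was thus the most abundant transcript of the locus per length and Dlx6os1 the least. In the libraries labelled Kat6a homozygous the order was the same, at 26.9 ± 2.3, 21.9 ± 2.3 and 2.68 ± 0.29 CPM per kb, but Dlx5 and Dlx6 lay closer together.

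In the libraries labelled Kat6a homozygous Dlx5 was lower and Dlx6os1 far lower than in wild type, and Dlx6 did not pass the test. Dlx6os1 was measured at 11.7, 9.6, 12.2 and 12.1 CPM in the mutant libraries, against 54.5, 43.2, 54.0 and 43.7 CPM in wild type. Every Kat6a homozygous library lay below every wild type library, by a wide gap. The level was 23.3% of the wild type mean, and the log2 fold change was −2.10 (SE 0.10, edgeR adjusted p = 1.52e-13), the smallest p of the 14506 genes tested. In bulk tissue, fewer cells that express a gene and less RNA per cell cannot be told apart.

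Dlx5 had 42.4, 37.1, 37.5 and 34.5 CPM in the same libraries, against 64.7, 79.0, 64.6 and 69.1 CPM in wild type, again with no overlap. Its mean was 54.6% of the wild type mean, a log2 fold change of −0.87 (SE 0.08, edgeR adjusted p = 1.46e-07). Dlx6 had 24.2, 23.1, 26.3 and 20.4 CPM in the libraries labelled Kat6a homozygous and 25.7, 34.5, 27.9 and 27.2 CPM in wild type. Here the groups overlapped by 1 library on either side, and the log2 fold change of −0.29 (SE 0.10, edgeR adjusted p = 0.169) missed the threshold of 0.05. The 95% interval of that difference ran from −0.49 to −0.09 for the gene taken alone. Among all genes tested, 1.06% were called lower in this comparison and 3.54% had every Kat6a homozygous library below every wild type library. Of the 3 genes, 2 were called lower and the same 2 did not overlap.

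Both calls rested on libraries of 1 batch, so no batch term enters these differences. Within batch 2 alone the log2 fold change of Dlx6os1 was −2.11 (SE 0.11). Without the neuron-rich libraries it was −2.09 (SE 0.10), that of Dlx5 was −0.80 (SE 0.09) and that of Dlx6 was −0.19 (SE 0.10). Other marker lists moved with this comparison. Second arch Hox markers (3 of 4 passed the filter) summed to 10.7 to 16.8 CPM in the libraries labelled Kat6a homozygous, against 18.2 to 28.6 CPM in wild type. Placode markers (3 of 7 passed the filter, with Oc90, Pax2, Pax8 and Rax at or near 0) summed to 30.9 to 46.6 CPM in the mutant libraries, against 46.5 to 55.3 CPM in wild type. Arch mesenchyme markers overlapped, at 1701 to 2034 CPM in the mutant and 1604 to 2021 CPM in wild type libraries. The part of these shifts in the Dlx5 and Dlx6os1 results was not tested.

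**Figure D1:**
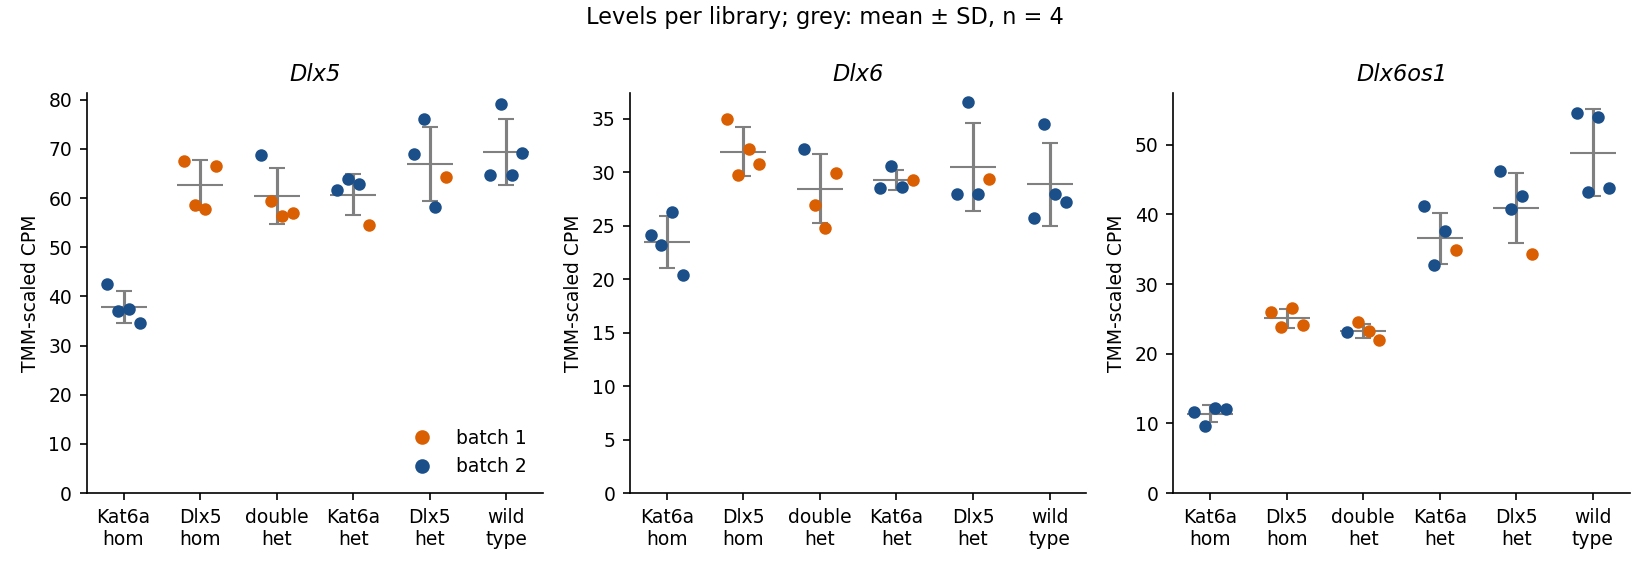
TMM-scaled CPM (vertical axes, starting at 0) of Dlx5, Dlx6 and Dlx6os1 in each of the 24 libraries, by genotype group from Kat6a homozygous at left to wild type at right, with points coloured by batch and grey marks for mean ± SD (n = 4). Mean Dlx6os1 is lowest in Kat6a homozygous libraries (11.4 CPM) and highest in wild type (48.8 CPM), with Dlx5 homozygous (25.1 CPM) slightly above double heterozygous libraries (23.3 CPM). Dlx5 is set apart in the Kat6a homozygous group alone at 37.9 CPM, and the Dlx6 levels of Kat6a homozygous and wild type libraries overlap.

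The Kat6a homozygous libraries were also set against the other mutant groups. Against Kat6a heterozygous libraries Dlx6os1 stood at −1.72 (SE 0.10, edgeR adjusted p = 5.04e-11) and Dlx5 at −0.72 (SE 0.08, edgeR adjusted p = 1.17e-05) on the log2 scale, where 0.524% of all genes were called lower. Dlx6 stood at −0.34 (SE 0.10, edgeR adjusted p = 0.148) there. Against the libraries labelled Dlx5 homozygous, all 3 genes were lower in every library of the Kat6a homozygous group, as were 3.77% of all genes. Those differences were −1.29 for Dlx6os1 (edgeR adjusted p = 5.83e-06), −0.90 for Dlx5 (6.27e-05) and −0.54 for Dlx6 (0.0681), with 0.303% of all genes called lower, and they rest on the batch term because these groups share no batch. The Dlx6 difference passed the test with DESeq2 (adjusted p = 0.0296). It also passed without the batch term, where genotype and batch cannot be told apart.

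Among libraries labelled Dlx5 homozygous, the only gene of the locus that passed the test was Dlx6os1. It had 26.0, 23.8, 26.5 and 24.1 CPM in these libraries, against 54.5, 43.2, 54.0 and 43.7 CPM in wild type. Nothing overlapped, and the mean was 51.4% of that in wild type. The log2 fold change was −0.82 (SE 0.13, edgeR adjusted p = 0.0116). Among all genes tested 0.0276% were called lower in this comparison and 2.29% were lower in every library.

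The 2 coding genes stood at 0.03 (Dlx5, given above) and 0.25 (Dlx6, SE 0.13, edgeR adjusted p = 0.532). Dlx6 had 35.0, 29.7, 32.1 and 30.7 CPM in the libraries labelled Dlx5 homozygous and 25.7, 34.5, 27.9 and 27.2 CPM in wild type. The 95% interval of the Dlx6 difference ran from −0.01 to 0.52 for the gene taken alone. Genotype and batch coincided in these groups, so the comparison has no within-batch value and rests on the batch term estimated from the 3 heterozygous groups. That term was 0.15 for Dlx6os1 (batch 2 minus batch 1, SE 0.09, edgeR adjusted p = 0.865). The Dlx6os1 call was lost without Kat6a heterozygous replicate 4 or without double heterozygous replicate 1, libraries that carry the batch term, at a highest adjusted p of 0.125. Without the neuron-rich libraries the value was −0.83 (SE 0.12).

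The Dlx5 homozygous libraries did not differ in Dlx6os1 from the double heterozygous libraries beyond the spread. The log2 difference was 0.15, with an interval from −0.05 to 0.34 (edgeR adjusted p = 0.781). Against Dlx5 heterozygous libraries Dlx6os1 stood at −0.59 (SE 0.11, edgeR adjusted p = 0.311), in a comparison where 0 genes (0.0%) were called. At an unadjusted p under 0.05, 1565 genes differed there, and DESeq2 called 1 gene, which was Dlx6os1 (adjusted p = 0.0285).

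In double heterozygous embryos, with 1 mutant allele of each gene, Dlx6os1 fell to 23.2, 24.6, 23.3 and 22.02 CPM, against 54.5, 43.2, 54.0 and 43.7 CPM in wild type. No library overlapped, and the 4 mutant libraries were closely grouped although they came from both batches. The log2 fold change was −0.96 (SE 0.11, edgeR adjusted p = 0.000107), and 0.152% of all genes were called lower, with 3.3% lower in every library. Within batch 2, where 1 double heterozygous library stood against the 4 wild type libraries, the value was −1.08 (SE 0.17, edgeR adjusted p = 0.0138), on the assumption that the lone library varies like the other groups.

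Dlx5 had 68.8, 59.3, 56.4 and 57.0 CPM in double heterozygous libraries, and the ranges overlapped with wild type. Dlx6 had 32.1, 26.9, 24.8 and 29.9 CPM. Their log2 fold changes were −0.07 (SE 0.09, edgeR adjusted p = 0.796) and 0.06 (SE 0.12, edgeR adjusted p = 0.873). Neuron and glia markers summed to 142 to 285 CPM in double heterozygous libraries, against 65.0 to 70.1 CPM in 3 wild type libraries and 399 CPM in the other one. The part of these markers in the Dlx6os1 result was not tested. Leaving out wild type replicate 2 with the other neuron-rich libraries, an alternative chosen after seeing the data, gave −0.99 (edgeR adjusted p = 2.91e-05) but leaves the neuron markers of the 2 groups further apart.

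Dlx6os1 was lower in double heterozygous libraries than in either single heterozygote. The difference from Kat6a heterozygous libraries was −0.57 (SE 0.10, edgeR adjusted p = 0.0412) and that from Dlx5 heterozygous libraries was −0.73 (SE 0.10, edgeR adjusted p = 0.00261), each in a comparison where 0.00689% of genes, 1 gene, were called lower. That gene was Dlx6os1 both times. The call against Kat6a heterozygous libraries was lost with a stricter filter (adjusted p = 0.0550) and when any of 10 of the 24 libraries was left out. Over all 24 fits with 1 library left out, the log2 values ran from −0.62 to −0.49. The call against Dlx5 heterozygous libraries was lost without double heterozygous replicate 1 (adjusted p = 0.195). Neither passed within batch 2, where 1 double heterozygous library is left.

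Single heterozygotes gave smaller values that did not pass. Dlx6os1 had 41.1, 32.7, 37.6 and 34.8 CPM in Kat6a heterozygous libraries, all below the 4 wild type libraries, the lowest of which had 43.2 CPM. The log2 fold change was −0.39 (SE 0.09, edgeR adjusted p = 0.146), and it passed with DESeq2 (adjusted p = 0.0234). With edgeR 0 genes (0.0%) were called in this comparison, 1648 genes had an unadjusted p under 0.05, and DESeq2 called 80. Having every mutant library below every wild type library was true of 1.76% of genes.

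Dlx5 was in the same position in Kat6a heterozygous libraries, at 61.6, 63.8, 62.8 and 54.6 CPM, all below the lowest wild type library of 64.6 CPM, the last of them, the 1 library of batch 1, by the widest gap. Its log2 fold change was −0.15 (SE 0.08, edgeR adjusted p = 0.486). Dlx6 had 28.5 to 30.5 CPM there and overlapped with wild type. In Dlx5 heterozygous libraries Dlx6os1 had 46.2, 40.7, 42.6 and 34.3 CPM and overlapped with wild type, at −0.23 (SE 0.09, edgeR adjusted p = 0.329). Dlx5 stood at −0.0047 in log2 terms in these libraries, with an interval from −0.16 to 0.15, and Dlx6 at 0.11. No gene (0.0%) was called with edgeR in that comparison, 1645 had an unadjusted p under 0.05, and DESeq2 called 31.

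**Figure D2:**
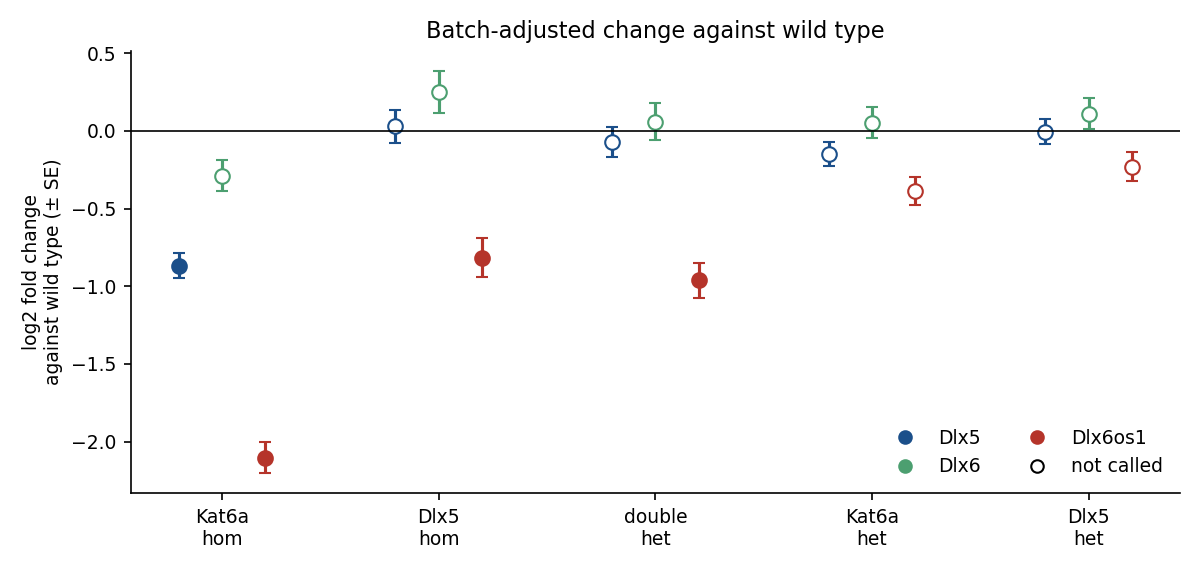
Batch-adjusted log2 fold change against wild type (vertical axis, ± SE from the edgeR fit over 24 libraries) of Dlx5, Dlx6 and Dlx6os1 in the 5 mutant groups, with filled points where the adjusted p over all genes was under 0.05. Dlx6os1 is filled in the Kat6a homozygous (−2.10), Dlx5 homozygous (−0.82) and double heterozygous (−0.96) groups, Dlx5 in the Kat6a homozygous group alone, and Dlx6 in none.

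Ordered by batch-adjusted level, Dlx6os1 was lowest in Kat6a homozygous libraries, followed by double heterozygous, Dlx5 homozygous, Kat6a heterozygous, Dlx5 heterozygous and wild type libraries. Of the neighbours in that order 1 pair passed the test, Kat6a homozygous against double heterozygous libraries at −1.14 (SE 0.12, edgeR adjusted p = 9.47e-06), where 0.903% of all genes were called lower. Dlx5 homozygous against Kat6a heterozygous libraries did not overlap either (23.8 to 26.5 against 32.7 to 41.1 CPM), and 2.07% of all genes were lower in every library there. Those CPM are not adjusted for batch, and of the Kat6a heterozygous libraries only replicate 4 shares the batch of the Dlx5 homozygous ones. The batch-adjusted difference of −0.43 (SE 0.11, edgeR adjusted p = 0.474) missed the threshold but passed it without the batch term (−0.54, adjusted p = 0.0476). For Dlx5 the Kat6a homozygous group was lowest and was called lower than its neighbour, the Kat6a heterozygous group, and no other neighbours passed the test. For Dlx6 no neighbours in the order passed the test. Over all 15 pairs of groups Dlx6 passed the test 1 time, in Kat6a homozygous against Dlx5 heterozygous libraries at −0.40 (SE 0.10, edgeR adjusted p = 0.0337), where 1.8% of all genes were called lower. That call was lost when any of 6 libraries was left out, within batch 2, with only the groups compared (−0.39, adjusted p = 0.132) or without the neuron-rich libraries (−0.30, adjusted p = 0.195). Dlx5 heterozygous replicate 2, one of the neuron-rich libraries, held the highest Dlx6 level of all, 36.5 CPM.

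Allele number was treated next. With the numbers of mutant Kat6a and Dlx5 alleles as numeric terms, Dlx6os1 changed by −0.96 in log2 terms per mutant Kat6a allele (SE 0.10, edgeR adjusted p = 2.31e-06) and Dlx5 by −0.36 (SE 0.06, edgeR adjusted p = 0.000808). In this term 0.855% of genes were called lower. Dlx6 stood at −0.13 (SE 0.05, edgeR adjusted p = 0.203). Per mutant Dlx5 allele Dlx6os1 stood at −0.54 (SE 0.12, edgeR adjusted p = 0.141), a value that passed with DESeq2 (adjusted p = 0.00339) and without the batch term, and that stood at −0.33 within batch 2. Dlx5 stood at −0.05 and Dlx6 at 0.07 per mutant Dlx5 allele, neither past the threshold, and 0.00689% of genes were called lower in this term.

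The Kat6a steps were unequal for Dlx6os1. In the order of 0, 1 and 2 mutant Kat6a alleles, the group means of Dlx6os1 were 48.8 ± 6.2, 36.5 ± 3.6 and 11.4 ± 1.2 CPM (SD, n = 4 each). The step to the second allele minus the step to the first, in log2 terms, was −1.33 (SE 0.17, edgeR adjusted p = 0.000306), in a contrast chosen after the group values were seen, where 0.0207% of genes were called lower. The same contrast was −0.57 for Dlx5 (SE 0.14, edgeR adjusted p = 0.116) and −0.39 for Dlx6 (SE 0.18, edgeR adjusted p = 0.489). With the groups of this contrast alone in the fit, the Dlx6os1 value was −1.29 and just missed the threshold (adjusted p = 0.0578). In the order of 0, 1 and 2 mutant Dlx5 alleles, Dlx6os1 means were 48.8 ± 6.2, 40.9 ± 5.0 and 25.1 ± 1.4 CPM (SD, n = 4 each), and the difference of the steps was −0.36 (SE 0.16, edgeR adjusted p = 0.403).

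The non-additive part for Dlx6os1 was tested as the double heterozygous change minus the sum of both single heterozygous changes. It was −0.35 (SE 0.13), with an unadjusted p of 0.0139 and an edgeR adjusted p of 0.877 over all genes, so it did not pass. For Dlx5 it was 0.08 (SE 0.11) and for Dlx6 −0.10 (SE 0.14). Of all genes 0.00689% were called in this contrast, none of them in the locus.

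**Figure D3:**
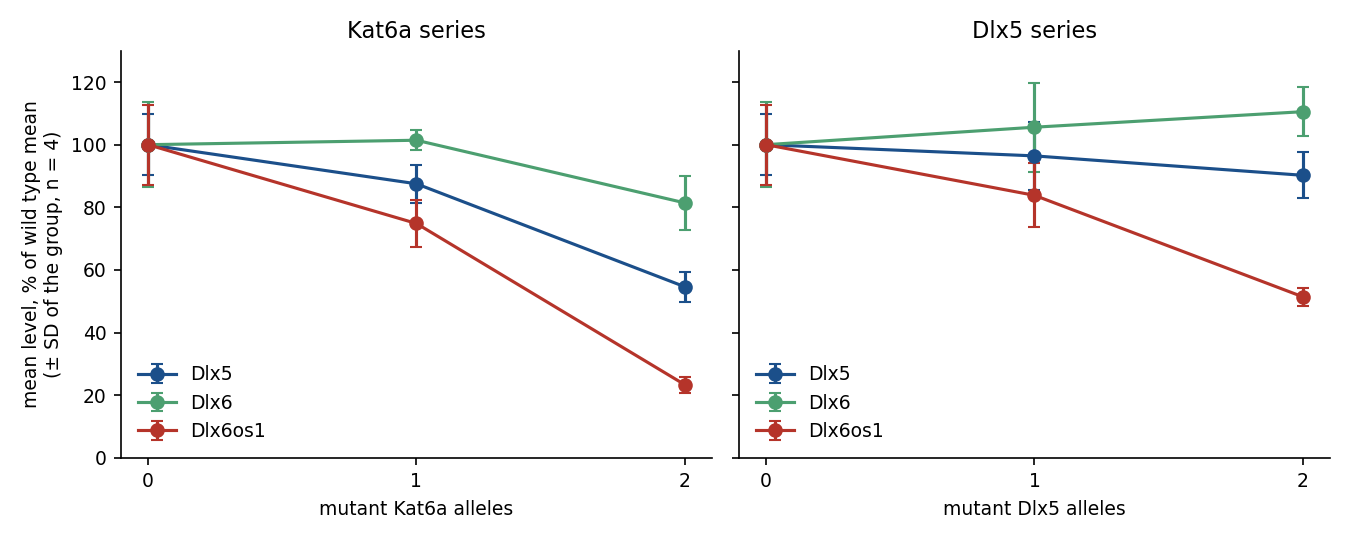
Group mean as percent of the wild type mean (vertical axis, error bars ± SD of the group, n = 4, not adjusted for batch) against the number of mutant Kat6a alleles (left) or mutant Dlx5 alleles (right). Dlx6os1 falls to 74.8% and 23.3% along the Kat6a series and to 83.8% and 51.4% along the Dlx5 series, whereas Dlx6 stays between 81.4% and 110.5% over both.

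Because the genes changed unequally, ratios of counts within a library were compared, which do not depend on library scaling. In groups with mutant Dlx5 alleles the Dlx5 counts, the denominator of both ratios, can hold reads from a mutant allele. The Dlx6os1 to Dlx5 ratio was 0.276, 0.258, 0.326 and 0.350 in the libraries labelled Kat6a homozygous, against 0.842, 0.547, 0.835 and 0.633 in wild type. It was lower in all 4 libraries. The log2 difference of −1.23 had an exact two-sided permutation p of 0.0286, the smallest that 4 against 4 libraries allow, and an adjusted p of 0.0408 over the 10 ratio comparisons made. Ratios in the libraries labelled Dlx5 homozygous ran from 0.362 to 0.459 and in double heterozygous libraries from 0.337 to 0.414, and each group had the same exact permutation p against wild type, with log2 differences of −0.81 and −0.86. The permutation test has no batch term, and Dlx5 homozygous and wild type libraries share no batch, so genotype and batch cannot be told apart in that ratio. The only double heterozygous library in the batch of the wild type libraries had the lowest ratio of its group, 0.337. Single heterozygotes overlapped with wild type in this ratio, at mean values of 0.604 ± 0.067 for Kat6a and 0.617 ± 0.099 for Dlx5, against 0.714 ± 0.148 in wild type (SD, n = 4 each).

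The Dlx6 to Dlx5 ratio went the other way. It was 0.621 ± 0.058 in libraries labelled Kat6a homozygous and 0.415 ± 0.023 in wild type (SD, n = 4 each), a log2 difference of 0.58, with every mutant library higher (exact permutation p = 0.0286, adjusted p = 0.0408). Smaller shifts with the same exact permutation p were found in libraries labelled Dlx5 homozygous (0.30), double heterozygous (0.18) and Kat6a heterozygous libraries (0.22). Dlx5 heterozygous libraries stood at 0.13 (exact permutation p = 0.114, adjusted p = 0.143). Within batch 2 the 3 Kat6a heterozygous libraries (0.456 to 0.479) and the 1 double heterozygous library (0.467) also lay above the highest wild type library (0.437), and Dlx5 homozygous libraries have no such value. A higher ratio shows unequal change of the 2 genes and does not say which one moved. Of the counts on the 3 genes, Dlx6os1 took 15.7% ± 1.8 in Kat6a homozygous and 33.3% ± 4.8 in wild type libraries, and Dlx6 took 32.2% ± 2.0 and 19.6% ± 1.8 (SD, n = 4 each).

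**Figure D4:**
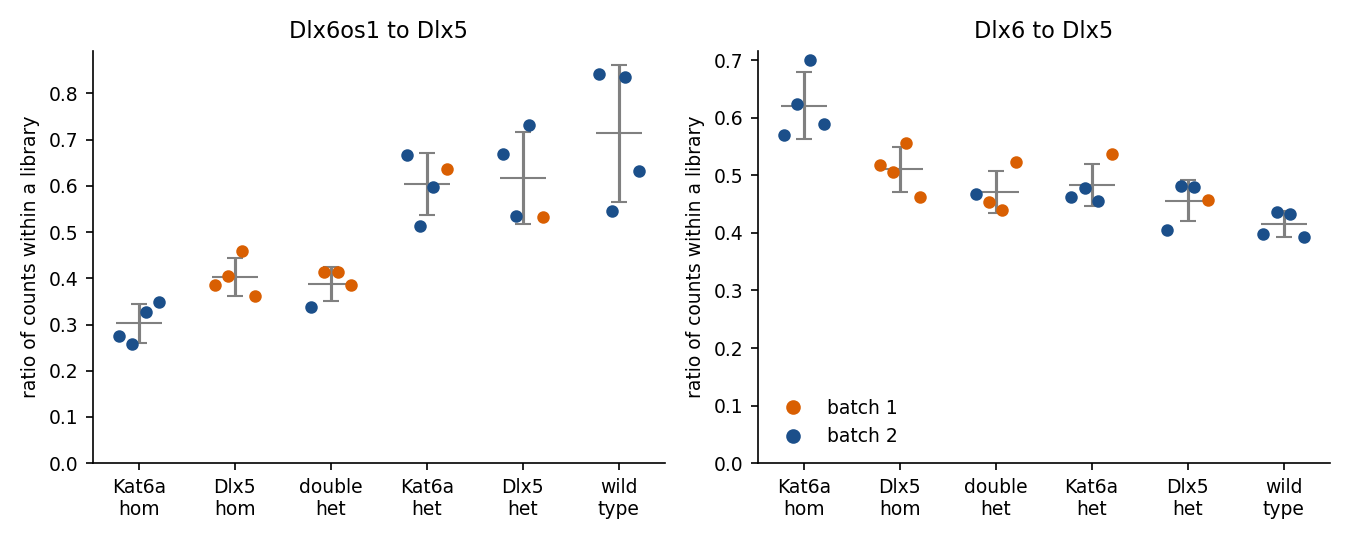
Ratio of counts of Dlx6os1 to Dlx5 (left) and of Dlx6 to Dlx5 (right) within each library (vertical axes, starting at 0), by genotype group with wild type at right, points coloured by batch and grey marks for mean ± SD (n = 4). The left ratio is lowest in Kat6a homozygous libraries (mean 0.302) and highest in wild type (0.714), and the right ratio runs in the opposite direction (0.621 and 0.415).

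Genes with the most similar pattern were ranked by Pearson r over the 24 libraries, on log2 CPM with the fitted batch effect removed, among 13697 genes with a mean of at least 1 CPM. These libraries share genotypes and batches, so r is a description. Closest to Dlx6os1 was Dlx4os, an opposite-strand RNA of the Dlx3 and Dlx4 locus (r = 0.961), followed by Nptx1, which encodes a neuronal pentraxin (0.938), Slc8a3, a sodium and calcium exchanger (0.912), Smoc1, a secreted calcium-binding matricellular protein (0.906), and Dlx3 (0.895). Dlx4os averaged 5.48 CPM in libraries labelled Kat6a homozygous, 8.13 in those labelled Dlx5 homozygous, 7.80 in double heterozygous and 12.03 CPM in wild type libraries. Dlx5 itself ranked as number 20 for Dlx6os1 (r = 0.801) and Dlx6 as number 570 (r = 0.478).

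Closest to Dlx5 were Skida1 (r = 0.920), the zinc finger gene Zmat4 (0.919), Dlx1 (0.883), the transcriptional regulator Tsc22d1 (0.881) and the collagen gene Col8a2 (0.878). As a description of the pattern they were picked for, their log2 fold changes in libraries labelled Kat6a homozygous against wild type were −0.68 for Skida1, −1.42 for Zmat4, −0.53 for Dlx1, −0.28 for Tsc22d1 and −1.24 for Col8a2. Dlx6 was closest to Vhl, the substrate receptor of a ubiquitin ligase (r = 0.888), Lbh, a transcription cofactor (0.83), Crabp1, a retinoic acid binding protein (0.812), the deubiquitinase gene Mindy1 (0.812) and Dlx5 (0.811).

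The other Dlx genes fell together with Dlx5 and Dlx6os1 in libraries labelled Kat6a homozygous. All 6 of the 6 paralogous transcripts tested (Dlx1, Dlx1as, Dlx2, Dlx3, Dlx4 and Dlx4os) were called lower there, as were 1.06% of all genes. The median log2 fold change of the 6 was −0.996, against 0.006 over all genes. Dlx4 had 2.02 ± 0.14 CPM in these libraries and 4.65 ± 0.48 CPM in wild type, and Dlx2, the least changed, had 103 ± 6 and 132 ± 14 CPM (SD, n = 4 each). Dlx1as and Dlx4os lie antisense to coding Dlx genes, and their reads cannot be told apart from those of their partners with certainty. In none of the other 4 mutant groups was any of the 6 called with edgeR. Few genes of any kind were called in those groups, 0.448% (double heterozygous), 0.0551% (Dlx5 homozygous) and 0.0% (both single heterozygotes). The median of the 6 was −0.31 in double heterozygous and −0.34 in Dlx5 homozygous libraries. Dlx3 came nearest in double heterozygous libraries (−0.38, edgeR adjusted p = 0.0777). Dlx6os1 was thus called in 2 groups where no paralogue was, but whether its change differed from theirs was not tested.

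Signals that act ahead of Dlx5 and Dlx6 showed no called change. All 14 listed genes of endothelin and BMP signalling were tested and 0 passed in any mutant group with edgeR. Over all genes the shares called in either direction were 1.53% (Kat6a homozygous), 0.448% (double heterozygous), 0.0551% (Dlx5 homozygous) and 0.0% (both single heterozygotes). At such shares a list of 14 genes without a call is no result about these genes. Edn1, the endothelin ligand, had 2.95 ± 0.71 CPM in libraries labelled Kat6a homozygous and 2.85 ± 0.60 CPM in wild type, and Ednra, its receptor, had 51.3 ± 5.5 and 50.8 ± 5.3 CPM (SD, n = 4 each). In the other groups Edn1 had lower means, none of them called, at 2.22 ± 0.85 CPM in libraries labelled Dlx5 homozygous (log2 −0.83, SE 0.34, edgeR adjusted p = 0.430), 1.66 ± 0.37 CPM in double heterozygous (−1.15, SE 0.31, edgeR adjusted p = 0.0869), 2.39 ± 0.60 CPM in Kat6a heterozygous (−0.41, SE 0.24) and 1.55 ± 0.31 CPM in Dlx5 heterozygous libraries (−1.03, SE 0.26, edgeR adjusted p = 0.214). Of 13 genes known to lie after Dlx5 and Dlx6 in the lower jaw programme, 2 fell in libraries labelled Kat6a homozygous, where 1.06% of all genes were called lower. In the other groups 0 of them were called lower, where the share over all genes was 0.152% (double heterozygous), 0.0276% (Dlx5 homozygous) and 0.0% (both single heterozygotes). Those were the homeobox genes Gbx2 (3.97 ± 1.47 CPM in mutant and 10.8 ± 2.1 CPM in wild type libraries, log2 fold change −1.43, SE 0.19, edgeR adjusted p = 6.30e-05) and Barx1 (106 ± 11 CPM in mutant and 156 ± 22 CPM in wild type libraries, −0.56, SE 0.12, edgeR adjusted p = 0.0218). Hand2, a known Dlx5 and Dlx6 target, stood at −0.27 (SE 0.10, edgeR adjusted p = 0.241).

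In the list of genes of the dorsal part of the arches, away from the Dlx5 and Dlx6 domain, 3 of 10 fell in libraries labelled Kat6a homozygous, against the same 1.06% of all genes. They were Nr2f2 (−0.33), Nr2f1 (−0.32) and Foxd1 (−0.60), all nuclear receptor or forkhead transcription factors, and none rose. The median over the 10 dorsal genes was positive (0.11), whereas the 3 called ones were negative. In no other group was a gene of this list called, at the near-zero shares given above. Of the 8 genes of the Kat6a complex, Kat6b, the paralogue of Kat6a, was called higher in double heterozygous libraries (67.4 ± 3.4 and 53.9 ± 7.3 CPM in wild type, 0.44, SE 0.10, edgeR adjusted p = 0.0440), where 0.296% of all genes were called higher.

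Within 1 Mb on either side 29 other genes are annotated, 10 were in the table and 6 were tested. Sem1, a proteasome subunit gene 242 kb on the side of lower coordinates, had 143 CPM in libraries labelled Kat6a homozygous and 172 CPM in wild type, a log2 fold change of −0.26 (SE 0.06, edgeR adjusted p = 0.0281). Sdhaf3, a succinate dehydrogenase assembly factor gene 73.9 kb on the other side, stood at −0.04 (SE 0.13, edgeR adjusted p = 0.928). Dync1i1, a dynein intermediate chain gene 792.5 kb away, had the largest neighbour difference at a low level (1.11 CPM in libraries labelled Kat6a homozygous and 1.66 CPM in wild type, −0.54, SE 0.25, edgeR adjusted p = 0.358). Sem1 was the 1 neighbour called in that group, where 1.53% of all genes were called in either direction. In the other 4 groups no neighbour was called with edgeR.

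**Figure D5:**
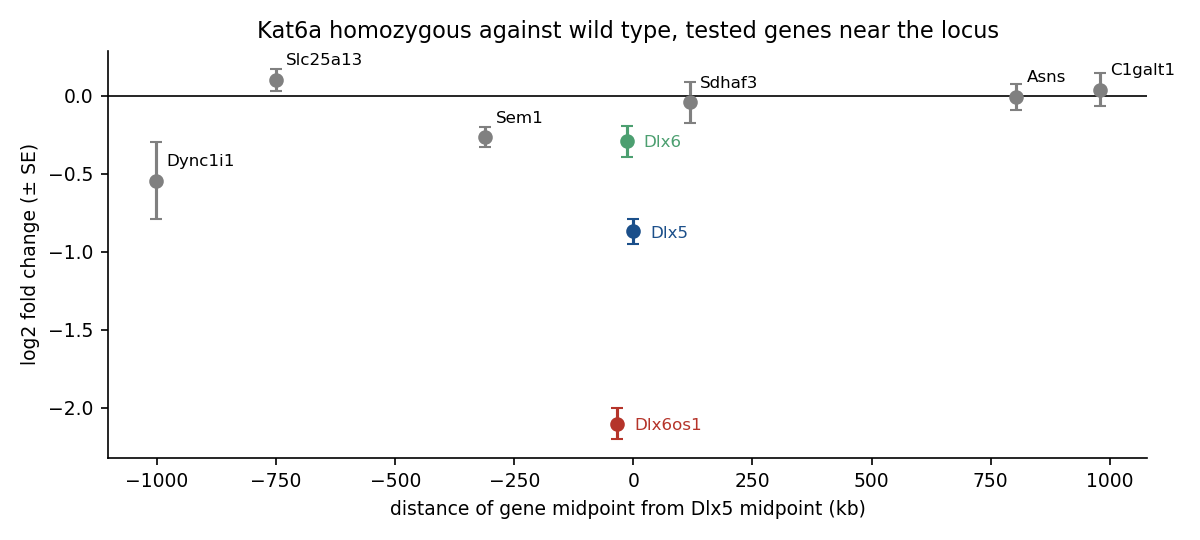
Log2 fold change of Kat6a homozygous against wild type libraries (vertical axis, ± SE from edgeR) for the tested genes near the locus, by distance of the gene's midpoint from the midpoint of Dlx5 in kb (horizontal axis). Dlx6os1 (−2.10) and Dlx5 (−0.87) have the lowest values, and the 6 tested neighbours run from −0.54 to 0.10.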

How the data were processed

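RNA-seq of mouse pharyngeal arches was analysed in 24 libraries of 6 genotypes. Per the labels' protocols, libraries were made with a stranded mRNA kit. Per the submitters' processing notes, base calling used CASAVA 1.8.2, counting used featureCounts and the build was mm10. Not given in the sources used here are the aligner, the annotation and both the version and the strand option of featureCounts. Unnormalized counts, by Entrez identifier and with gene lengths, are what the authors deposited. The 24 single-sample files were identical to the series table and were not used further. Entries without an identifier (568, with 0.182% to 0.259% of a library's counts) were left out.

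Counts were tested with edgeR 4.0.16 (R 4.3.3): filterByExpr by group (14506 genes), TMM scaling, and a robust quasi-likelihood fit of 6 group means plus batch over all libraries. A second fit used allele numbers and batch. Calls were made at adjusted p under 0.05 (Benjamini-Hochberg, all tested genes). Levels are TMM-scaled CPM, and log2 CPM for similarity used a prior count of 2. Ratios were tested by exact permutation (scipy 1.17.1). The procedure was tested on simulated data. Named genes were the 3 of the locus, Kat6a, the 5 most similar to each, neighbours within 1 Mb, Dlx paralogues and up to 4 called genes per list, and others are named for background. Members and lists were chosen with earlier results of these data known.

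Alternatives were DESeq2 1.42.0, RLE scaling, a replicate block, a fit of only the groups compared, a stricter filter (1 CPM in 12 libraries) or none, batch 2 alone, a fit without batch, and each library left out. A fit of only the groups compared had no batch term where batch and genotype coincided or where all libraries were of 1 batch. Removal of 4 neuron-rich libraries and the contrasts of allele steps were added after seeing the data. Replicate numbers have no stated origin. Deviations from group means correlated over 0.1 in all 4 same-numbered pairs of Kat6a homozygous and Kat6a heterozygous (0.104 to 0.604), Kat6a heterozygous and Dlx5 heterozygous (0.261 to 0.564) and Kat6a heterozygous and wild type libraries (0.162 to 0.654). Other pairs of groups did not reach this, though Kat6a homozygous and wild type libraries came near it (0.095 to 0.569). In which groups the numbers stand for pairs, if in any, cannot be told from this cut. No pairing entered the main fit or the ratio tests, which were unpaired, and the replicate block covered all 6 groups. No 2 replicates agreed within sampling noise (chi-square 2.98 to 23.7 times that expected).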

Additional observations from a re-analysis of the deposited data

Results flagged for a closer look

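The Dlx6 level of Dlx5 heterozygous replicate 2, 36.5 CPM, stood far from the other 3 libraries of its group, which lay between 27.9 and 29.4 CPM. Over the 36 combinations of gene or ratio and group examined in this way, 1 stood out, and chance gives about 1 in 20. The same library had 334 CPM of neuron and glia markers. The part of those markers in its Dlx6 level was not tested.

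The effect of the second mutant Kat6a allele on Dlx6os1 differed from that of the first, by −1.33 in log2 terms (SE 0.17, edgeR adjusted p = 0.000306), in a contrast chosen after the group values were seen. All 4 Kat6a homozygous libraries lay below all 4 Kat6a heterozygous libraries, and all of those below all 4 wild type libraries. The first was true of 2.94% of all genes and the second of 1.76%.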

How the results depend on the processing

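Dlx5 and Dlx6os1 in Kat6a homozygous against wild type libraries, and Dlx6os1 in double heterozygous against wild type libraries, kept their direction and their call in all alternatives run and without any single library. All values here are log2 differences, and the cause of each change was not tested. DESeq2 called 5 further values: Dlx6 in Kat6a homozygous against Dlx5 homozygous (−0.543), Dlx6os1 in Dlx5 homozygous against Dlx5 heterozygous (−0.5831), Dlx6os1 in Kat6a heterozygous against wild type (−0.39), Dlx5 for the second Kat6a step minus the first (−0.5684) and Dlx6os1 per mutant Dlx5 allele (−0.5584). Without the batch term 3 of these were called too (−0.4405, −0.7 and −0.5148, for Dlx6, for Dlx6os1 against Dlx5 heterozygous and per Dlx5 allele), as was Dlx6os1 in Dlx5 homozygous against Kat6a heterozygous (−0.5406). With only the groups compared, the Dlx6 value was called (−0.4394) and the unequal Kat6a steps of Dlx6os1 (−1.289) were not. That Dlx6 fit also had no batch term, because genotype and batch coincide there, so it is no separate alternative. Dlx6os1 in double heterozygous libraries lost its call against Kat6a heterozygous libraries with the stricter filter (−0.5733) and in batch 2 alone (−0.6789), and against Dlx5 heterozygous libraries in batch 2 alone (−0.8983). With the replicate block Dlx6os1 was called in Dlx5 homozygous against Dlx5 heterozygous libraries (−0.6871), whose same-numbered libraries correlated at −0.086 to 0.065. No other call on the 3 genes changed with this block. Without the neuron-rich libraries that same comparison was called (−0.5755). Dlx6 in Kat6a homozygous against Dlx5 heterozygous libraries lost its call in batch 2 alone (−0.3961), with only the groups compared (−0.3929) and without neuron-rich libraries (−0.2953).

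Sign changes were all in values that passed no test. Without the batch term Dlx5 in Dlx5 homozygous libraries stood at −0.0948 against Dlx5 heterozygous and −0.1458 against wild type libraries, and with only the groups compared at −0.0406 and −0.147. The last of these fits again had no batch term, as genotype and batch coincide in its groups. Without that term double heterozygous libraries stood at −0.0088 (Dlx5) and −0.042 (Dlx6) against Kat6a heterozygous and at −0.0151 (Dlx6) against wild type libraries. In batch 2 alone they stood at 0.0207 (Dlx5) and 0.0578 (Dlx6) against Dlx5 heterozygous libraries, the non-additive part of Dlx6 was 0.0385, and Dlx5 per Dlx5 allele was 0.0355. Without neuron-rich libraries Dlx6 stood at −0.0037 and 0.0101 in double heterozygous against Kat6a and against Dlx5 heterozygous libraries and at 0.0137 between these single heterozygotes, and Dlx5 at 0.002 in Dlx5 heterozygous against wild type libraries. The second Dlx5 step minus the first was −0.0438 (Dlx5) and −0.0169 (Dlx6) without the batch term and −0.0081 (Dlx5) with only the groups compared.

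Leaving out 1 library at a time gave these ranges where a call or a sign changed. Dlx6os1 ran from −0.9228 to −0.7583 in Dlx5 homozygous against wild type libraries, and in double heterozygous libraries from −0.6227 to −0.4875 against Kat6a and from −0.8514 to −0.6446 against Dlx5 heterozygous libraries. Dlx6 in Kat6a homozygous against Dlx5 homozygous libraries ran from −0.5983 to −0.4687 and was called without wild type replicate 2 or Dlx5 heterozygous replicate 3. Uncalled Dlx5 values ran from −0.0086 to 0.1109 (Dlx5 homozygous against Dlx5 heterozygous), −0.0198 to 0.0867 (Dlx5 homozygous against wild type), −0.1213 to 0.0068 (double heterozygous against Dlx5 heterozygous), −0.0719 to 0.0732 (Dlx5 heterozygous against wild type) and −0.0817 to 0.1429 (second Dlx5 step minus first). Uncalled Dlx6 values ran from −0.0787 to 0.0694 and −0.1352 to 0.0201 (double heterozygous against Kat6a and against Dlx5 heterozygous), −0.0502 to 0.149, −0.0124 to 0.1394 and −0.0002 to 0.2047 (double, Kat6a and Dlx5 heterozygous against wild type), −0.1112 to 0.0348 (Kat6a against Dlx5 heterozygous) and −0.071 to 0.2001 (second Dlx5 step minus first).

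Counts of called genes over the whole table moved more than the values of the locus. For Kat6a homozygous against wild type libraries, 222 genes were called, against 98 in batch 2 alone, 83 without neuron-rich libraries, 64 with only the groups compared and 122 to 444 with 1 library left out. The count was 65 for double heterozygous and 8 for Dlx5 homozygous against wild type libraries, against 185 and 38 with DESeq2, and 1 to 169 and 0 to 16 with 1 library left out. Depth gave 113 to 155 Dlx6os1 counts in Kat6a homozygous and 520 to 1519 in wild type libraries.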
